A study of Mus musculus with 9 samples.

Results

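Adhesive glycoproteins of the extracellular matrix (ECM) were examined in capillaries and their neighbouring cells from the ossification front (OF) of mouse femurs. The set was chosen by name and comprised 10 of the 39179 genes listed in each library: the fasciclin-domain genes Postn (periostin) and Tgfbi, the tenascins Tnc, Tnn and Tnxb, the cell-adhesion proteins Fn1 (fibronectin) and Vtn (vitronectin), and the EMI-domain genes Emilin1, Emilin2 and Emid1. Ensembl identifiers were translated to symbols with the GENCODE annotation of GRCm38.

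Tissue came from juvenile mice of 4 weeks (5 libraries) and adult mice of 12 weeks (4 libraries). Mice of both ages were of C57BL/6 origin and carried the Tg(TIE2GFP)287Sato/J reporter, in which GFP is driven by the Tie2 promoter and marks endothelial cells. GFP guided the laser, but whole pieces were cut, so a library holds RNA of the capillary and of whatever cells touched it. Pieces of a sample were pooled before RNA isolation, and according to the methods both genders were analysed together.

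These proteins are secreted, and several of them bind cells through integrins. Fibronectin is assembled by cells into fibrils on which other matrix proteins are laid down, while periostin and the tenascins are called matricellular because they alter how cells hold to the matrix and are typical of growing, loaded or healing tissue. Periostin is known from the periosteum and the periodontal ligament, tenascin-C from bone-forming surfaces and tendon insertions, and the EMILIN proteins from the border of elastin and its microfibrils.

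Totals ranged from 4856833 to 8077362 counts, and 3 counts corresponded to 0.371 to 0.618 CPM, the count divided by the library total on a common scale. Marker genes of osteoblasts, endothelial cells and osteoclasts were detected at both ages, and all 6 endothelial markers passed the filter on low counts. Adult replicate 2 stood apart from the other adult libraries, with a summed chondrocyte marker level of 26181 normalized counts (3661 to 6120 in the other adult libraries) and a neutrophil level of 421 (14833 to 20827). Juvenile replicates 4 and 5 had more Y-linked Ddx3y than Xist counts, and the other 7 libraries (3 juvenile and 4 adult) are called Xist-rich here. Every adult library was thus Xist-rich, and the labels give no sex. Age and sex are therefore partly confounded and cannot be fully told apart with all 9 libraries. EdgeR called all neutrophil markers (7 of 7) and 4 of 5 tested erythroid markers higher in adult libraries, and 3 of 6 osteoblast markers higher in juvenile libraries. Of the neutrophil and erythroid markers, DESeq2 called 6 and 5 higher in adults and limma voom 2 and 3. Among the Xist-rich libraries edgeR called 4 and 0, with 7 and 5 at an unadjusted p under 0.05. Elane, Mpo and Ngp of the neutrophil list overlapped between the ages. With these mixed pieces, fewer cells of a type and less RNA per cell cannot be told apart.

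The bases before the start site are shown for Postn, Tnc and Emid1, which differed between the ages, because Postn and Tnc were higher in adults and Emid1 in juveniles. Each is written 5′ to 3′ on the strand of the gene, from RefSeq (GRCm38.p6). Capitals mark a TATAAA in Postn and Tnc, and a GGGCGG (GC box) on either strand in Emid1.
Postn, chr3:54360957-54361106, plus strand: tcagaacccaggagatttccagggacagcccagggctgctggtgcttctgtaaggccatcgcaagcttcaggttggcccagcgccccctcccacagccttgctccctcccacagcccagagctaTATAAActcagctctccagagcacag
Tnc, chr4:64047016-64047165, minus strand: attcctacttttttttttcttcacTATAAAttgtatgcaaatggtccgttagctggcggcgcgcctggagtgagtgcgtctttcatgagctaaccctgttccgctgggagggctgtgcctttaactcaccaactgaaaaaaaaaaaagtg
Emid1, chr11:5152258-5152380, minus strand: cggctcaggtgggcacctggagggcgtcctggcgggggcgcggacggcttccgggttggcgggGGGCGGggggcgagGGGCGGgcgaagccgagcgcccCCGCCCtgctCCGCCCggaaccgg

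The Postn stretch ends 1 base before the start and its TATAAA begins 26 bases before it. In Tnc the stretch also ends 1 base before the start, and TATAAA begins 126 bases upstream. The Emid1 stretch ends 28 bases before the RefSeq start, where an exon annotated by GENCODE begins, and its 4 GC boxes begin 87, 73, 51 and 41 bases upstream. Upstream of the stretch shown, the Tnc window also held a GC box, at 167 bases. Within the whole 250 bases before the start, Emid1 held a further GC box at 186 bases and 31 CpG dinucleotides, against a median of 6 over 32851 windows. The Postn window held 4 CpG and the Tnc window 8.

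Both strands of each window of 250 bases were searched for the TATA box (TATAAA), the GC box (GGGCGG), the RUNX motif (TGTGGT), the AP-1 motif (TGANTCA) and the CArG box. Of all windows, 12.4% held the TATA box, 32.7% the GC box, 14.0% the RUNX motif, 6.75% the AP-1 motif and 1.47% the CArG box. RefSeq windows were found for 9 of the 10 genes, with Fn1 missing. The letters of the RUNX motif and the CArG box were in none of the 9 windows, those of AP-1 were in the Tnxb window, the Vtn window held the TATA box and the Tgfbi window a GC box, and the Emilin1 window, which lies within an exon annotated by GENCODE and is not shown, held no match to the 5 motifs. These matches describe the sequence and are not evidence of binding.

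Comparison of the ages asks how the ECM around OF capillaries differs during and after active growth. Of the 10 genes, 7 passed the filter on low counts and 4 were differentially expressed by edgeR's quasi-likelihood test with Benjamini-Hochberg adjustment over all tested genes. Across all 13418 tested genes, 3.88% were called at an adjusted p under 0.05, with 1.99% higher in juveniles and 1.89% higher in adults. Postn and Tnc were higher in adults, Emid1 and Emilin1 were higher in juveniles, and Fn1, Tgfbi and Emilin2 did not pass. Libraries of the ages did not overlap for those same 4 genes, as was the case for 9.15% of all tested genes. The log2 fold changes (juvenile over adult) of the 7 tested genes ranged from −2.87 to 1.64, with a median of −0.56, compared with −0.0066 over all tested genes. Values below are normalized counts, that is counts brought by TMM scaling to a common library size, the geometric mean of the 9 effective sizes.

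**Figure D1:**
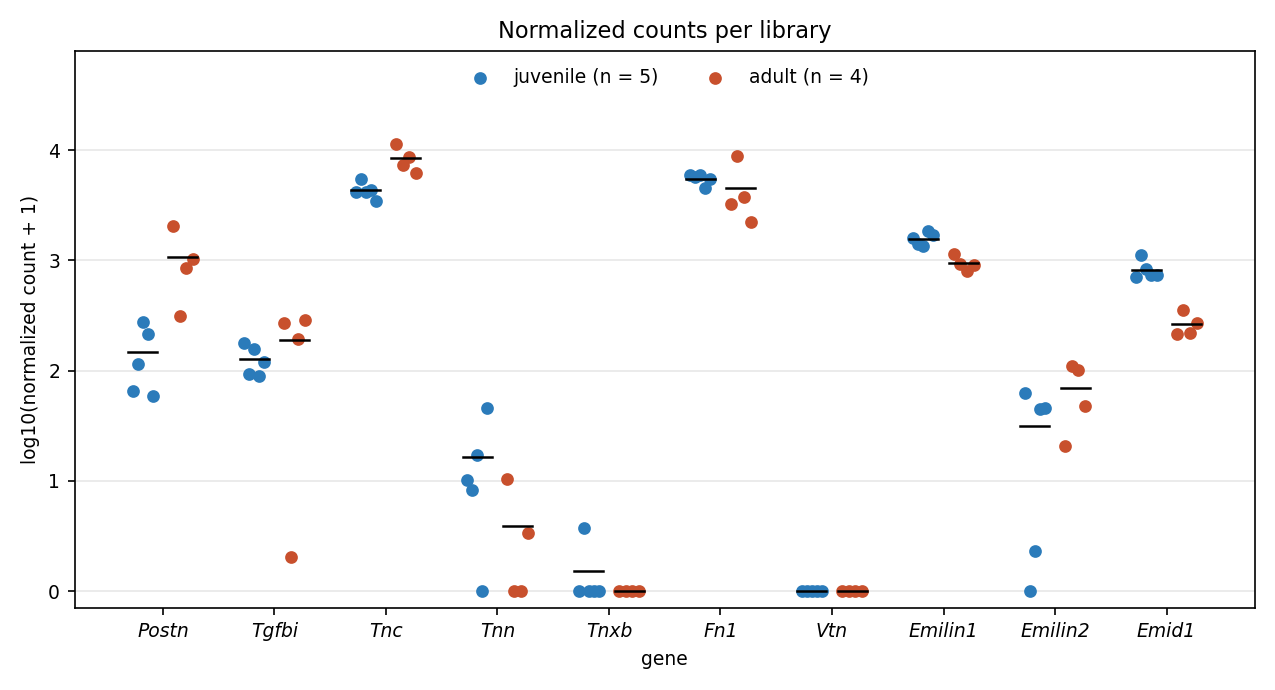
Normalized counts of the 10 genes in each library, as log10(normalized count + 1), with juvenile (blue, n = 5) and adult (red, n = 4) libraries side by side and a black line at the mean normalized count. The points of the ages are separate for Postn, Tnc, Emilin1 and Emid1, and Tgfbi in adult replicate 2 lies far below every other library.

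Postn (ENSMUSG00000027750, chr3:54361109-54391037, plus strand) encodes periostin, a fasciclin-domain protein that binds integrins and other matrix proteins. In juvenile replicates 1 to 5 its normalized counts were 64.9, 113, 278, 212 and 58.5. Adult replicates 1 to 4 had 2064, 310.3, 847 and 1029. Every adult library was above every juvenile library, although the lowest adult value, in replicate 2, was close to the highest juvenile value, in replicate 3.

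The mean rose from 145 ± 96.3 (SD, n = 5) in juveniles to 1063 ± 734 (SD, n = 4) in adults. The difference was 7.33-fold, a log2 fold change of −2.87 with a standard error of 0.55 and a 95% confidence interval from −4.06 to −1.69 (edgeR's quasi-likelihood test, adjusted p = 0.0136). Postn had the largest log2 fold change of the 7 tested genes and also a wide spread within each age, with coefficients of variation of 66.3% in juveniles and 69.1% in adults. Adult replicate 1, with the highest Postn, also had the highest Acta2 and Myh11, from the list of 7 pericyte and smooth muscle markers. It had 358 normalized counts of Acta2 and 133 of Myh11, compared with at most 52.8 and 11.6 in the other 8 libraries. Adult replicate 4, with 1029 normalized counts of Postn, had 0.786 of Acta2 and none of Myh11. The other genes of that list went both ways. Mean Rgs5 and Notch3 were higher in adults (905 and 208 normalized counts) than in juveniles (182 and 178). Mean Abcc9, Cspg4 and Kcnj8 were lower in adults (356, 447 and 119) than in juveniles (770, 837 and 199). Without adult replicate 1 the log2 fold change of Postn was −2.35 (edgeR, adjusted p = 0.0268). Without adult replicate 2 it was −3.20 (edgeR, adjusted p = 0.00389). Within the 7 Xist-rich libraries it was −2.81, with an adjusted p of 0.116 in edgeR's test of 3 juvenile against 4 adult libraries.

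Tgfbi (ENSMUSG00000035493, chr13:56609523-56639562, plus strand) encodes the closest relative of periostin, a fasciclin-domain protein induced by TGF-β. Juvenile replicates 1 to 5 had 179, 93.1, 158, 88.4 and 120 normalized counts. Adult replicates 1 to 4 had 271, 1.05, 191 and 289. Apart from replicate 2, where a lone read was counted, every adult library was above every juvenile library.

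The log2 fold change of Tgfbi was −0.56 with a standard error of 0.79 and a 95% confidence interval from −2.26 to 1.14 (edgeR's quasi-likelihood test, adjusted p = 0.806). Without adult replicate 2 it was −0.99 (edgeR, adjusted p = 0.153). The SD of its log2 CPM was 3.20 among adults, more than in 99.5% of all tested genes, and 0.44 among juveniles. Adult replicate 2 was also the adult library with the lowest summed monocyte and macrophage markers, 4308 normalized counts against 4902 to 7532. Csf1r alone had 3800 to 4573 normalized counts in adult libraries. The 5 juvenile libraries, with 88.4 to 179 normalized counts of Tgfbi, had lower sums of these markers, 1892 to 2529. The part of monocytes and macrophages in the Tgfbi values was not tested.

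Both fasciclin-domain genes were compared per length, as CPM per kilobase of exon. The level of Postn was 0.157 to 1.04 times that of Tgfbi in juvenile libraries, and 1.54 to 3.30 times in adult replicates 1, 3 and 4. By this measure Postn was below Tgfbi in 4 of 5 juvenile libraries and above it in each of those 3 adult libraries. Exon length was the union of all annotated exons, 8702 bases for Postn and 3771 for Tgfbi, and the order depends on it. Before division by length, juvenile replicates 2, 3 and 4 had more counts of Postn (125, 208 and 180) than of Tgfbi (103, 118 and 75). Juvenile replicates 1 and 5 had fewer counts of Postn (57 and 44) than of Tgfbi (157 and 90). No ratio is given for adult replicate 2, in which Tgfbi rested on 1 count.

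Tnc (ENSMUSG00000028364, chr4:63959785-64047015, minus strand) encodes tenascin-C, a six-armed glycoprotein that loosens the hold of cells on fibronectin. Its normalized counts were 4150, 5469.9, 4203, 4309 and 3484 in juvenile replicates 1 to 5. In adult replicates 1 to 4 they were 11442, 7299.5, 8717 and 6160. All adult libraries were above all juvenile libraries, with adult replicate 1 again the highest and adult replicate 4 the lowest.

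Mean Tnc was 4323 ± 718 (SD, n = 5) in juveniles and 8405 ± 2279 (SD, n = 4) in adults. The difference was 1.94-fold, a log2 fold change of −0.96 with a standard error of 0.19 and a 95% confidence interval from −1.38 to −0.54 (edgeR's quasi-likelihood test, adjusted p = 0.0168). It was −0.79 without adult replicate 1 (edgeR, adjusted p = 0.0301) and −0.89 without juvenile replicate 5, where the adjusted p was 0.0514 in edgeR's test. In the Xist-rich libraries it was −0.86 (edgeR, adjusted p = 0.148). An antisense gene on the opposite strand, 8030451A03Rik, shares 176 exonic bases with Tnc (2.3% of its exon length) and had 34 to 275 counts per library.

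Tnn (ENSMUSG00000026725, chr1:160085029-160153580, minus strand) encodes tenascin-W, known from bone and its periosteum. It had 8, 8, 12, 0 and 34 reads in juvenile replicates 1 to 5, and 13, 0, 0 and 3 in adult replicates 1 to 4. Thus it was detected in 4 of 5 juvenile and 2 of 4 adult libraries, overlapped between the ages, and did not pass the filter on low counts. Without that filter its log2 fold change was 2.30 with a standard error of 1.68 (edgeR, adjusted p = 0.508).

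Tnxb (ENSMUSG00000033327, chr17:34670535-34719815, plus strand) encodes tenascin-X, a protein of loose connective tissue. It had 3 reads in juvenile replicate 2 and none in the other 8 libraries. Tnc therefore supplied at least 98.7% of the tenascin counts of every library. At these depths the floor of 3 counts corresponds to 0.371 to 0.618 CPM, and a level of Tnxb below it could be missed.

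Fn1 (ENSMUSG00000026193, chr1:71585520-71653200, minus strand) encodes fibronectin. Juvenile replicates 1 to 5 had 5954, 5639, 5924, 4538 and 5472 normalized counts. Adult replicates 1 to 4 had 3241, 8798, 3779 and 2247. In adults, 3 libraries were below every juvenile library and replicate 2 was above every juvenile library.

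The log2 fold change of Fn1 was 0.29 with a standard error of 0.31 and a 95% confidence interval from −0.39 to 0.96 (edgeR's quasi-likelihood test, adjusted p = 0.731). Without adult replicate 2 it was 0.81, higher in juveniles (edgeR, adjusted p = 0.0355), so this library decided the call. Fn1 varied little among juveniles, with an SD of log2 CPM of 0.16 (the median of all tested genes was 0.51), and more among adults, with 0.83 (median 0.70). Adult replicate 2 had the highest chondrocyte markers, with 19566 normalized counts of Col2a1 (827 to 5440 in the other 8 libraries). Whether chondrocytes contributed to its Fn1 was not tested. The antisense gene Apol7d shares 292 exonic bases with Fn1 (2.5%) and had only 6 to 19 counts.

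Fibronectin and tenascin-C, which bind each other, were also compared within each library. The exon lengths, unions of all annotated exons, were 11685 bases for Fn1 and 7772 for Tnc, and the ratios depend on them. Per kilobase of exon, Fn1 was at 0.686 to 1.04 times the level of Tnc in juvenile libraries. In adult replicates 1, 3 and 4 it was at 0.188, 0.288 and 0.243 times. Adult replicate 2 had a ratio of 0.802, within the juvenile range.

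Vtn (ENSMUSG00000017344, chr11:78499091-78502324, plus strand) encodes vitronectin, an adhesive protein of plasma and matrix that is made mainly by the liver. No read was counted on it in any of the 9 libraries, with the same floor of 0.371 to 0.618 CPM. Of the 4 hepatocyte markers, Alb, Apoa1 and Ttr were likewise at 0 in all 9 libraries. The remaining marker, Serpina1a, was counted in 4 libraries, with at most 54.3 normalized counts, in adult replicate 4.

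Emid1 (ENSMUSG00000034164, chr11:5106265-5152257, minus strand) encodes a secreted protein with an EMI domain and collagen-like stretches. Its normalized counts were 704, 1115, 829.5, 734 and 732 in juvenile replicates 1 to 5. In adult replicates 1 to 4 they were 214, 355, 217 and 268. The lowest juvenile library was above the highest adult library, and the spread within each age was small.

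Mean Emid1 was 823 ± 170 (SD, n = 5) in juveniles and 264 ± 65.9 (SD, n = 4) in adults. The difference was 3.12-fold, a log2 fold change of 1.64 with a standard error of 0.23 and a 95% confidence interval from 1.14 to 2.15 (edgeR's quasi-likelihood test, adjusted p = 0.00272). Emid1 had the smallest adjusted p of the set, and it was called under every alternative setting tried, with log2 fold changes between 1.51 and 1.80. In the Xist-rich libraries the log2 fold change was 1.75 (edgeR, adjusted p = 0.0359).

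Emilin1 (ENSMUSG00000029163, chr5:30913402-30921277, plus strand) encodes a protein of elastic fibres and of the anchoring of vessels. Juvenile replicates 1 to 5 had 1587, 1402, 1334, 1839 and 1699 normalized counts. Adult replicates 1 to 4 had 1132, 934, 794 and 907. Libraries of the ages did not overlap, and the difference was the smallest of the 4 that were called.

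Mean Emilin1 was 1572 ± 208 (SD, n = 5) in juveniles and 942 ± 141 (SD, n = 4) in adults. It was 1.67-fold higher in juveniles, with a log2 fold change of 0.74, a standard error of 0.17 and a 95% confidence interval from 0.37 to 1.11 (edgeR's quasi-likelihood test, adjusted p = 0.0319). The call was near the threshold. Of the 9 comparisons that each left out a library, 6 lost it, without juvenile replicates 1, 4 or 5 or adult replicates 2, 3 or 4, and the log2 fold change remained between 0.65 and 0.83. In the Xist-rich libraries it was 0.62 (edgeR, adjusted p = 0.212).

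Emilin2 (ENSMUSG00000024053, chr17:71252172-71311978, minus strand) encodes a relative of EMILIN1. Its normalized counts were 61.4, 0, 1.34, 43.6 and 45.2 in juvenile replicates 1 to 5. Adult replicates 1 to 4 had 19.6, 109, 100.2 and 46.4. Juvenile replicates 2 and 3 were at or near 0 and the other 7 libraries overlapped. The log2 fold change was −1.18 with a standard error of 1.12 and a 95% confidence interval from −3.60 to 1.24 (edgeR's quasi-likelihood test, adjusted p = 0.68), so that neither direction could be given.

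**Figure D2:**
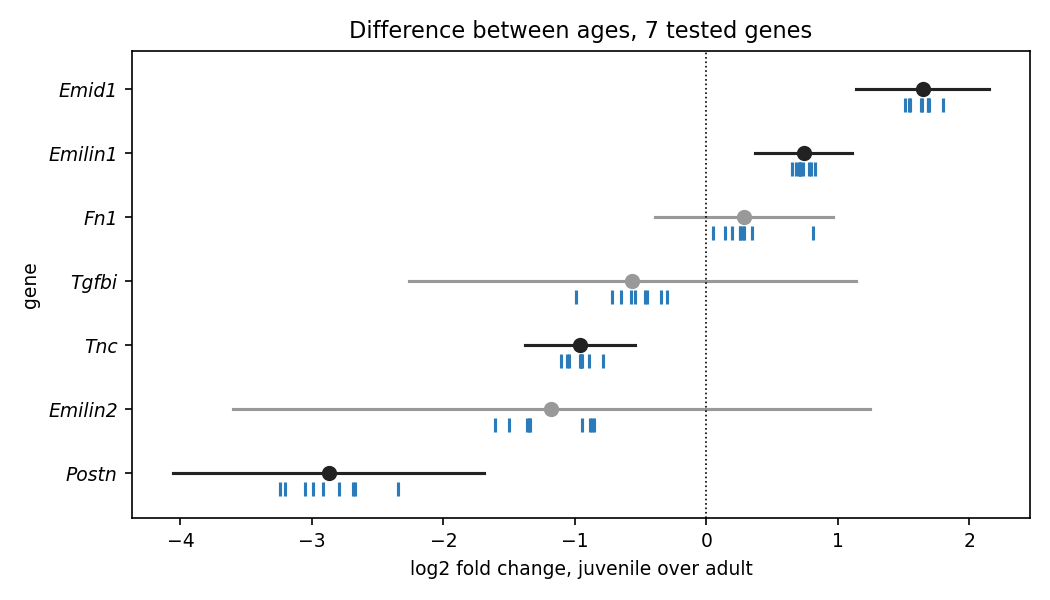
Log2 fold changes (juvenile over adult) of the 7 tested genes as points with 95% confidence intervals, in black where the adjusted p was under 0.05 and in grey otherwise; blue ticks are the values with each library left out in turn. Postn (−2.87) and Tnc (−0.96) lie on the adult side, Emilin1 (0.74) and Emid1 (1.64) on the juvenile side, and the isolated tick of Fn1 at 0.81 is the value without adult replicate 2.

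Levels between genes were compared per length, as CPM per kilobase of exon. The length was the union of all annotated exons of a gene, which can exceed that of the transcript expressed, so the order depends on it. In juveniles the mean normalized count of Fn1 (5505) was above that of Tnc (4323), with exon lengths of 11685 and 7772 bases. In juveniles the order was Tnc (88.6 ± 14.7), Fn1 (75.1 ± 7.86), Emilin1 (50.7 ± 6.71), Emid1 (45.4 ± 9.37), Tgfbi (5.39 ± 1.68), Postn (2.66 ± 1.76), Emilin2 (0.878 ± 0.809) and Tnn (0.425 ± 0.481; SD, n = 5). Libraries of neighbours in this order overlapped except between Fn1 and Emilin1 and between Emid1 and Tgfbi. The first 4 genes thus formed a group clearly above the rest.

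In adults the order was Tnc (172 ± 46.7), Fn1 (61.6 ± 39.9), Emilin1 (30.4 ± 4.54), Postn (19.5 ± 13.4), Emid1 (14.5 ± 3.63), Tgfbi (7.94 ± 5.56), Emilin2 (1.99 ± 1.24) and Tnn (0.0807 ± 0.122; SD, n = 4). Here Tnc was separate from Fn1, and Emilin2 from Tnn, while all other neighbours down to Emilin2 overlapped. Postn moved from the sixth place in juveniles to the fourth in adults, and Emid1 from the fourth to the fifth, although their adult libraries overlapped. Fn1 and Tnc together made up 75.2% to 80.3% of the summed normalized counts of the set in juvenile and 76.8% to 90.4% in adult libraries. The whole set took 0.171% to 0.207% of all counts in juvenile and 0.193% to 0.314% in adult libraries.

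**Figure D3:**
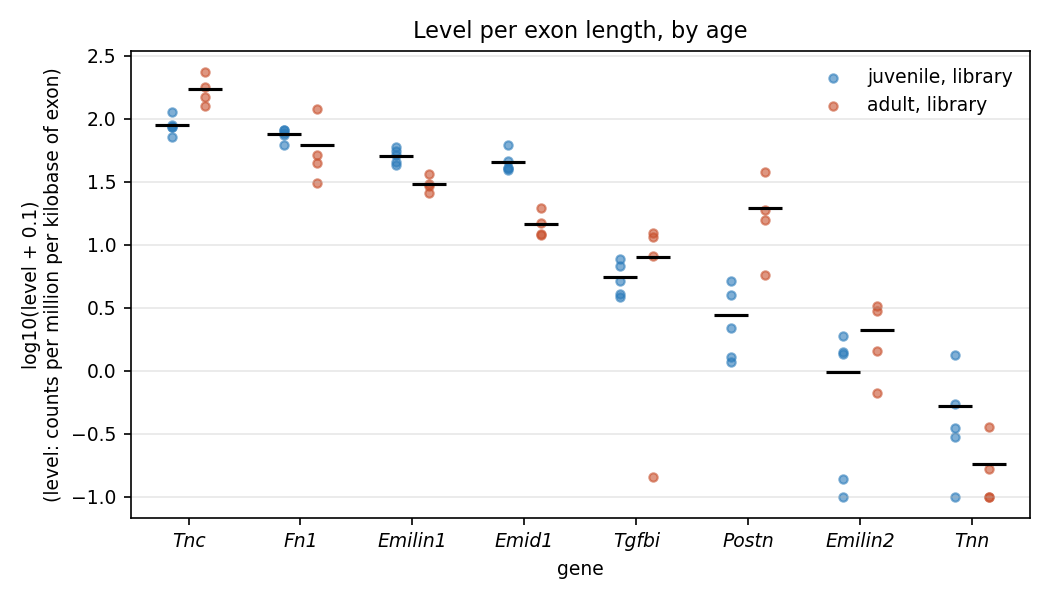
Level per exon length of the 8 genes with more than 3 counts in any library, as log10(level + 0.1), where the level is CPM per kilobase of exon, with juvenile (blue) and adult (red) libraries as points and the mean as a black line. Tnc had the highest mean at both ages (88.6 and 172), and Postn is the gene whose means lie farthest apart (2.66 and 19.5).

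Relatives of the set were taken from 3 further lists. Among 7 genes with related domains, 4 passed the filter and edgeR called none of them, with 0 at an unadjusted p under 0.05 and 0 called by DESeq2 or limma voom. These were Stab1, a scavenger receptor with fasciclin domains and the highest level per length (13.8 in juveniles and 12.3 in adults), Mmrn2, an EMI-domain protein of endothelial cells (log2 fold change 0.44 ± 0.34, SE), Mmrn1 (−1.67 ± 1.07) and Emilin3 (1.54 ± 1.28). Tnr, the tenascin of the nervous system, was at 0 in all libraries, and Col26a1, in sequence the nearest relative of Emid1, had at most 25.9 normalized counts.

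Integrins are receptors of several of these proteins. Of 11 integrin subunits, 9 were tested and edgeR called none, with 1 at an unadjusted p under 0.05 in each direction. Itgb1, the subunit shared by the fibronectin and tenascin receptors, had the highest level per length (103 and 94.3), with normalized counts of 2634 ± 388 (SD, n = 5) in juveniles and 2417 ± 446 (SD, n = 4) in adults and a log2 fold change of 0.12 ± 0.18 (SE). Limma voom called none either, while DESeq2 called 1 in each direction. Itgb8 and Itga2b, named after their values were seen, were the genes with an unadjusted p under 0.05, with log2 fold changes of 2.42 ± 0.63 and −3.23 ± 1.06 (SE; edgeR's adjusted p = 0.0513 and 0.114). Itga8, the partner subunit for binding tenascin-C and fibronectin in smooth muscle, was counted only in adult replicate 1 (90.0 normalized counts) and juvenile replicate 5 (6.65).

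Proteins that process or assemble these adhesive proteins formed the third list. Of 18 genes, 16 were tested, and 4 were higher in juveniles. Lox, the lysyl oxidase that crosslinks collagen and elastin, fell from 5680 ± 613 (SD, n = 5) in juveniles to 1763 ± 535 (SD, n = 4) normalized counts in adults, a log2 fold change of 1.69 ± 0.20 (SE; edgeR's quasi-likelihood test, adjusted p = 0.00106). Bmp1, a protease that processes procollagens and the LOX precursor and binds both fibronectin and periostin, had 8289 to 11742 normalized counts in juveniles and 3286 to 4025 in adults, with a log2 fold change of 1.36 ± 0.16 (SE; edgeR, adjusted p = 0.00106). The microfibril gene Mfap2 (2.03 ± 0.38, SE; edgeR, adjusted p = 0.0119) and the elastic fibre gene Efemp2 (0.81 ± 0.19, SE; edgeR, adjusted p = 0.0371) were higher in juveniles as well. The call of Efemp2 was lost in 8 of the 9 comparisons that left out a library. None was called higher in adults by edgeR or limma voom, with 1 at an unadjusted p under 0.05, Ltbp2 (−3.60 ± 1.18, SE; edgeR, adjusted p = 0.113), which DESeq2 called and which is named after its values were seen. Elastin itself (Eln) was too low to be tested, with at most 109 normalized counts.

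The genes most like Postn across the 9 libraries were Zmat5 (Pearson's r = 0.97 of log2 CPM), Camp (0.96), Lig1 (0.96), Apoe (0.96) and Igfbp4 (0.95). The corresponding Spearman's rho ranged from 0.93 to 0.98. Camp is a granule protein of neutrophils and belongs to the marker list that was higher in adults. The points are 9 libraries of 2 ages, between which Postn itself differed, and the correlations are descriptive and were not tested.

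Markers of some cell types also differed between the ages. Osteoblast markers summed to 562170 to 719485 normalized counts in juvenile and 193660 to 291471 in adult libraries. Most of these sums came from Col1a1 (means of 475826 and 183915) and Ibsp (135570 and 55252). Runx2, Alpl and Phex overlapped between the ages and were not called by edgeR. At an unadjusted p under 0.05 in edgeR, 5 of 6 osteoblast markers were higher in juveniles, Runx2 and Alpl among them. DESeq2 and limma voom each called 4 of 6 higher in juveniles. Markers of adipogenic stroma summed to 1765 to 2454 and 2390 to 6583, with Cxcl12 higher in adults and Lepr higher in juveniles. Monocyte and macrophage markers summed to 1892 to 2529 and 4308 to 7532, with 2 of 7 tested markers higher in adults, and neutrophil markers to 31.9 to 229.7 and 421 to 20827. Pericyte and smooth muscle markers summed to 1743 to 2503 and 1263 to 3020, and edgeR called 0 of 6, with 3 at an unadjusted p under 0.05 and 1 called by DESeq2 and by limma voom. Endothelial markers summed to 1832 to 3391 and 1963 to 2896, with 0 of 6 called by edgeR, DESeq2 or limma voom and 0 in edgeR at an unadjusted p under 0.05. Fibroblast and tendon markers summed to 449 to 678 and 120 to 1498. Of these 8 markers 3 were tested, and Scx was higher in juveniles. Fmod (log2 fold change −0.84 ± 0.91, SE) and Mkx (1.18 ± 1.01, SE) were not called by edgeR. Clec3b was at 0 in all libraries, and Dpt had at most 1.55 normalized counts. Also higher in adults were 1 of 5 tested chondrocyte, 1 of 5 osteoclast and 1 of 2 megakaryocyte and platelet markers. Of 4 B-cell markers, edgeR and limma voom called 0 and DESeq2 called 1, with 1 at an unadjusted p under 0.05 in edgeR, and no hepatocyte or skeletal muscle marker passed the filter. The part of each cell type in the differences of Postn, Tnc, Emilin1 and Emid1 was not tested.

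**Figure D4:**
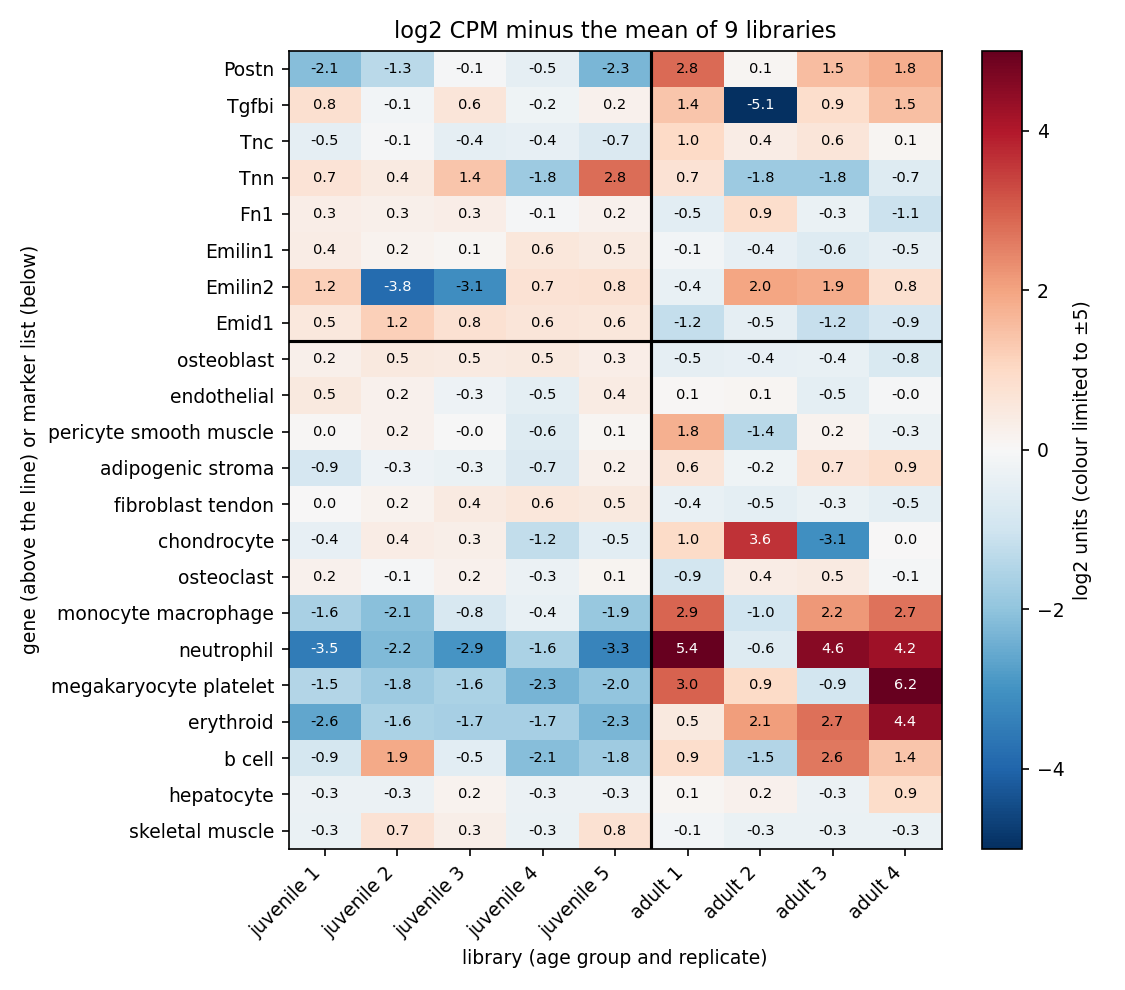
Log2 CPM minus the mean of the 9 libraries for the 8 genes with at least 10 counts in a library (above the horizontal line) and, below it, for the mean of each cell type marker list; columns are libraries, with juveniles left of the vertical line, and red is above and blue below the mean. Postn is at 2.8, 1.5 and 1.8 in adult replicates 1, 3 and 4. There the pericyte and smooth muscle list is at 1.8, 0.2 and −0.3. The neutrophil list is at 5.4, 4.6 and 4.2 in the same libraries, and the monocyte and macrophage list at 2.9, 2.2 and 2.7. Tgfbi is at −5.1 in adult replicate 2, where the chondrocyte list is at 3.6.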

How the data were processed

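RNA from laser-microdissected pieces was amplified with a SMART-Seq kit and sequenced as paired-end reads. The authors mapped them to mm10 with TopHat2 and Bowtie2 and deposited whole-number read counts per Ensembl gene, without normalization. The submitters' processing notes name featureCounts, while its strand setting and annotation release are not given in the sources used here. PCR reads are not independent molecules, so the floor of 3 counts covers counting error only.

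Ages were compared with edgeR 4.0.16 (filterByExpr, TMM, quasi-likelihood F test, Benjamini-Hochberg adjustment, called at an adjusted p under 0.05) and checked on simulated data. The standard error was taken from the fold change and its F statistic. Log2 CPM used a prior count of 2, and exon lengths were GENCODE unions. The study describes the libraries of an age as coming from different mice, and the labels name no animal, so p-values measure the spread between these samples.

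The alternatives were DESeq2 size factors, upper quartile scaling, DESeq2 1.42.0, limma 3.58.1 voom with quality weights, no filter, at least 10 counts in every library, a replicate block, thinned counts, omission of haemoglobin, immunoglobulin and mitochondrial genes, the 7 Xist-rich libraries, and each library left out.

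The members and lists were chosen with earlier results of these data known. Named were all members, the called genes and the highest per length of 3 context lists, all family relatives measured and the 5 genes most correlated with Postn. Cell type markers were 14 lists.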

Additional observations from a re-analysis of the deposited data

Results flagged for a closer look

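Among the 39 groups of libraries examined (the named genes at each age), 3 had a library set apart from the rest of its group, where chance gives about 1.95. Tnxb had 2.71 normalized counts in juvenile replicate 2 and 0 in the other juvenile libraries, a value that rests on 3 reads. Stab2 had 20.97 normalized counts in adult replicate 3 and 0 to 3.14 in the other adult libraries. Lox had 4612 normalized counts in juvenile replicate 1 and 5752 to 6147 in the other juvenile libraries, still above every adult library.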

How the results depend on the processing

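With all libraries, the number of genes called was 520 with edgeR, 1492 with DESeq2, 89 with the replicate block and 73 among the 7 Xist-rich libraries, and it ranged from 262 to 651 with each library left out. The count of members higher in juveniles was 1 in place of 2 without the filter on low counts, with the replicate block and among the 7 Xist-rich libraries, where Emilin1 lost its call (edgeR, adjusted p = 0.0558, 0.132 and 0.212), and 1 to 2 with each library left out. The count of members higher in adults was 0 with the replicate block and 0 among the 7 Xist-rich libraries, in both cases with 2 at an unadjusted p under 0.05 in edgeR, 2 with DESeq2 and 2 with limma voom on all libraries, and 1 to 2 with each library left out.

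With the replicate block the log2 fold changes were −2.47 for Postn (edgeR, adjusted p = 0.102), −0.86 for Tnc (0.121) and 1.69 for Emid1 (0.0223). Same-numbered libraries share only a number: the correlations of their deviations were 0.027, −0.032, 0.019 and 0.030, and the block leaves juvenile replicate 5 without a partner. Tgfbi changed direction, to 0.81 with limma voom and 0.0898 with the replicate block, and the cause was not tested. Fn1 was called only without adult replicate 2 (0.81), and Tnc lost its call without juvenile replicate 5. Tnn and Tnxb did not pass the filter on low counts; without it their log2 fold changes were 2.30 and 2.52 (edgeR, adjusted p = 0.508 and 0.381). Vtn had no count in any library and gave no value.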
